A study of Mus musculus with 6 samples.

Results

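Cholesterol genes were examined in the inguinal fat of mice that drank arsenite or water. The set holds 31 genes of cholesterol synthesis, uptake and efflux, found by symbol among the 13490 genes of the deposited table; all 31 had a row, with Msmo1 written there under its older name Sc4mol. By role they comprise 7 enzymes of the early mevalonate steps, 11 enzymes of the late sterol steps, 7 genes of SREBP2 control and sterol transport, and 6 genes of the liver X receptors (LXR) and efflux. RNA sequencing had been performed on inguinal white adipose tissue, a subcutaneous depot in which heat-producing beige adipocytes can form, from wild-type male C57BL/6J mice aged 15 weeks. One group of 3 samples came from mice on distilled water (dH2O) and the other group of 3 from mice given 300 ppb sodium arsenite, a trivalent arsenic salt, in the drinking water for 9 weeks. The values are means per group made by the authors, on a count-like scale, and a value per sample was not analysed here, so no mean below carries an SD. The labels give about 20 M mapped reads for each sample; beyond that, sequencing depth is unknown. They do not state that every sample is a different mouse, so the spread behind the authors' test may in part be technical.

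Cells make cholesterol from acetyl-CoA: the early steps build isoprenoid units by way of mevalonate, and the late steps join them into squalene, close the rings to lanosterol and trim it to cholesterol. The transcription factor SREBP2 switches on nearly all of these enzymes when sterol in the endoplasmic reticulum is low. When sterol is plentiful, INSIG proteins hold SREBP2 and its escort SCAP in that membrane, while oxysterols activate the LXRs, which switch on efflux transporters. Adipocytes hold a large share of the body's unesterified cholesterol in membranes and lipid droplets.

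Both groups of enzymes had lower means under arsenite, and 3 of the 18 enzyme genes were called lower: Fdps, Sqle and Cyp51. A gene was called when its deposited posterior probability of equal expression (PPEE, on which low values mark a difference) was at most 0.05. That bound was chosen here, and 0.734% of all 13490 genes met it in either direction and 0.348% met it as lower. No member was called higher. In all, 17 of the 18 enzymes had a lower mean under arsenite, the exception being Hmgcs1 (15 of 18 under 3 alternatives of scaling or length adjustment, where Ebp and Tm7sf2, both near 0, turned), and 11 of the 18 were lower by at least 1.5-fold. Outside the enzymes, none of the 13 genes was called, 6 of 13 had a lower mean, and 0 of 13 were lower by 1.5-fold. Across all genes, 5.79% were lower by at least 1.5-fold and 54.5% had a ratio below 0. Under those 3 alternatives the share below 0 was 33.8% (equal sums), 46.5% (upper quartiles) and 50.4% (length trend removed). In whole tissue, fewer cells of a type and less RNA per cell cannot be told apart.

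**Figure D1:**
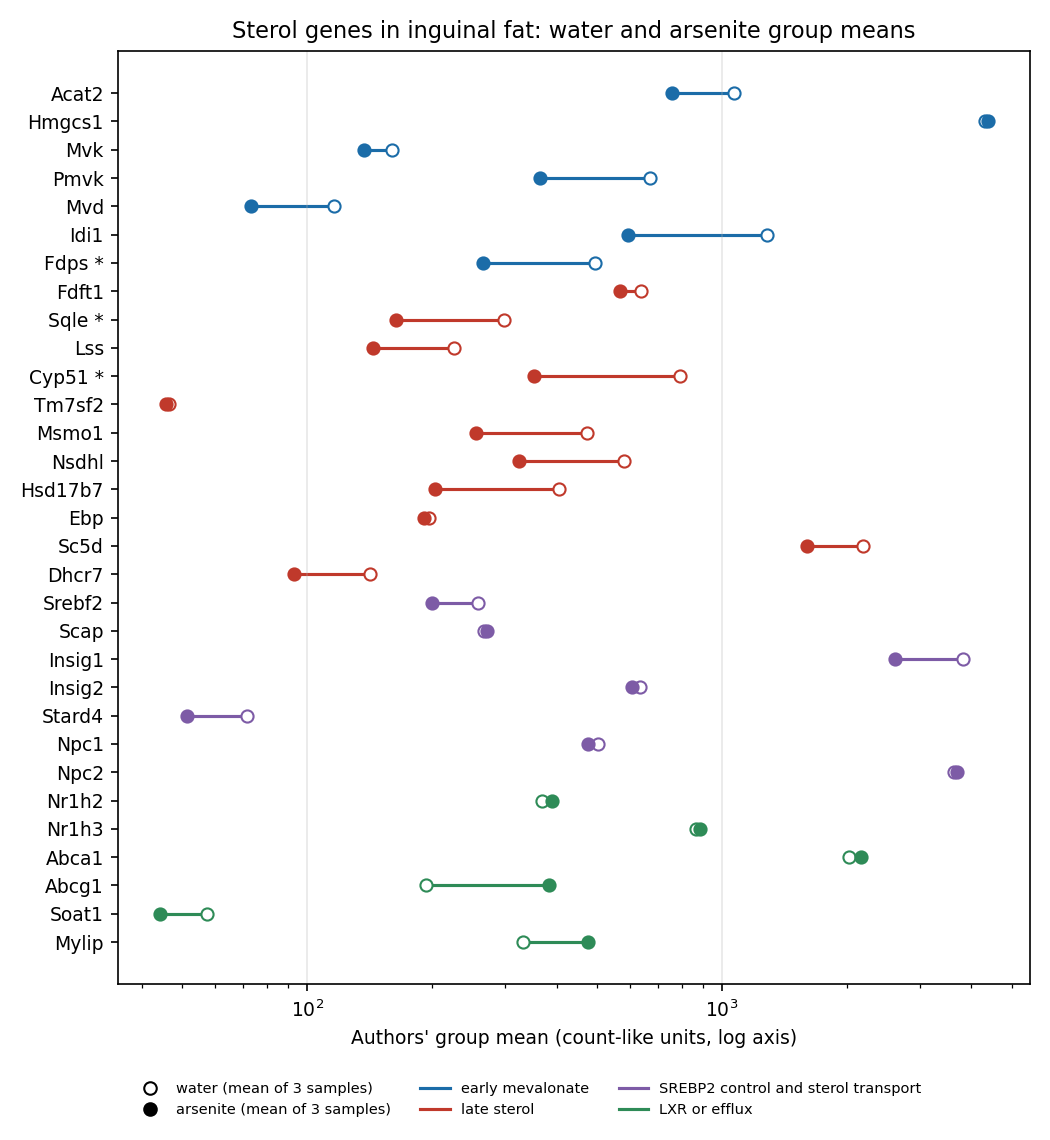
Authors' group means of the 31 sterol genes on a log axis, in count-like units; open circles are the water group, filled circles the arsenite group (3 samples each), and an asterisk marks a PPEE of at most 0.05. The circles of most enzymes lie well apart with arsenite to the left, those of Hmgcs1 (4312 and 4392), Ebp and Tm7sf2 nearly coincide, and Abcg1 and Mylip lie the other way round.

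The start regions of 4 enzyme genes are shown because the genes differ in ratio while their promoters share an element. Each is the RefSeq window from 250 bases before to 50 bases after the annotated start in GRCm38.p6, written 5′ to 3′ on the gene's strand, with CCAAT in either orientation (ATTGG on the opposite strand) and the SRE core TCACNCCAC in capitals. CCAAT is bound by NF-Y, which acts beside SREBPs on sterol promoters, and the SRE is the element that SREBPs bind. The window of Hmgcs1 lies at chr13:119690101-119690400 on the plus strand, that of Idi1 at chr13:8885356-8885655 on the plus strand, that of Cyp51 at chr5:4104648-4104947 on the minus strand and that of Msmo1 at chr8:64733529-64733828 on the minus strand.
Hmgcs1: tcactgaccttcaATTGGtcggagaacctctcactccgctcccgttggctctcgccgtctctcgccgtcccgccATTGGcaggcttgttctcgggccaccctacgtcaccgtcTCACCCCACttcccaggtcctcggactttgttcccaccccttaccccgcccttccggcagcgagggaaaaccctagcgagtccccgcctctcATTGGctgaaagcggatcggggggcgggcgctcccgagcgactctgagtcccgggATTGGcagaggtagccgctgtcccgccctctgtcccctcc
Idi1: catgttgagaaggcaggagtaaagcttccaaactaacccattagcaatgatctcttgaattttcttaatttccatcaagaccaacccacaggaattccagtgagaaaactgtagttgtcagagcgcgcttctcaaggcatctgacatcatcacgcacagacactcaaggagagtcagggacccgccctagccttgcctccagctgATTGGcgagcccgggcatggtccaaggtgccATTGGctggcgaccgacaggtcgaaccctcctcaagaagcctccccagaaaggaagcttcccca
Cyp51: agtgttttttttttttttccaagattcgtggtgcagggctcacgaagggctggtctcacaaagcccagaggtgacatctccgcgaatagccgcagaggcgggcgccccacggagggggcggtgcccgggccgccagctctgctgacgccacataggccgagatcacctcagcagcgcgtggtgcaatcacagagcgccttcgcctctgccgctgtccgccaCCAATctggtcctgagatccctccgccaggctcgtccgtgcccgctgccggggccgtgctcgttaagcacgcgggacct
Msmo1: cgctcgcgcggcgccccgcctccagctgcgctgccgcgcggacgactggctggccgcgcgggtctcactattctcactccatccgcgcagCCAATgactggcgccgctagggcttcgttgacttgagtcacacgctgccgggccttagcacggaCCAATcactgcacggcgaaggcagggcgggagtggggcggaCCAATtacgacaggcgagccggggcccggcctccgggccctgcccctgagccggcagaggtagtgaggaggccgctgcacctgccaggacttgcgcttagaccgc

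Of these windows, that of Hmgcs1 held 4 CCAAT matches and 1 match to the SRE core, and those of Idi1, Cyp51 and Msmo1 held 2, 1 and 3 CCAAT matches and 0 to the SRE core. The 4 windows share CCAAT, as do most enzyme windows (below). The mean of Hmgcs1 was nearly equal in both groups and those of Idi1, Cyp51 and Msmo1 were lower under arsenite. These 4 genes were picked after their ratios were seen, so their windows cannot relate motif to ratio, and no such relation was tested. RefSeq windows were matched for 25 of the 31 genes, and for 15 of the 18 enzymes. Abcg1, Fdft1, Fdps, Npc1, Sqle and Stard4 had none, so Cyp51 was the only called gene searched. CCAAT was found on either strand in 20 of the 25 genes (80.0%), against 42.7% of the 10655 genes of the table with a window and 41.1% of all 27025 RefSeq genes with a window. Among the enzymes it was found in 14 of 15, all but Acat2, and among the remaining members in 6 of 10, with no match in Abca1, Nr1h2, Nr1h3 and Scap. The SRE core was found in 1 of the 25 genes (4.0%), Hmgcs1, against 1.37% of the table's genes and 1.44% of all RefSeq genes; SREBPs also bind variants of these letters, which this search does not read. The GC box GGGCGG, bound by Sp1, was in 22 of 25 genes against 66.7% of the table's genes and 38.2% of all RefSeq genes. The E box CACGTG was in 6 of 25 against 11.6% and 8.09%, and the nuclear receptor half-site AGGTCA in 3 of 25 against 15.1% and 18.1%. A direct repeat of that half-site with 4 bases between, the LXR arrangement, was in 0 of 25, against 0 of the table's genes and 4 of all 27025 (0.0148%). Both strands were searched; the repeat contains the half-site, and no other motif here contains another. These matches describe letters, not binding.

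The early mevalonate enzymes had a median log2 ratio (arsenite over water) of -0.66 over 7 genes, against -0.03 over all genes. Fdps, farnesyl diphosphate synthase, which makes the branch-point isoprenoid for sterols, prenyl groups and ubiquinone, fell from an authors' mean of 494 under water to 265 under arsenite, 1.86-fold lower. The authors' deposited table gave it a PPEE of 0.000179, the 25th smallest of the 13490. Idi1, isopentenyl diphosphate isomerase, which interconverts the 5-carbon units, had means of 1285 and 596, a difference of 2.16-fold. That is a wider gap than for Fdps, yet the PPEE of Idi1 was higher, 0.0908 according to the authors' deposited table, and it was not called. Pmvk, phosphomevalonate kinase, had means of 671 and 365, 1.84-fold apart, and the authors' deposited table lists a PPEE of 0.927 for it. Pmvk and Fdps thus had nearly the same ratio and opposite calls.

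Mvd, which decarboxylates mevalonate diphosphate, had means of 116 under water and 73.4 under arsenite, and Acat2, the cytosolic thiolase of the first condensation, had 1073 and 758. Mvk, mevalonate kinase, had 161 and 137. None of these 3 was called, with PPEE between 0.960 and 0.994 according to the authors' deposited table. Hmgcs1, the synthase that makes HMG-CoA, had 4312 under water and 4392 under arsenite, and the authors' deposited table lists its log2 ratio as 0.03. It was the only enzyme of the 18 with a ratio above 0, and it had the highest level of the 18 per length.

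Some early enzyme values may carry reads of other genes. Of the 50-base stretches in their GENCODE M21 transcripts, 39.1% occur in other genes for Acat2, chiefly Acat3, 26.2% for Fdps, 25.3% for Idi1 and 11.6% for Hmgcs1. For Fdps the other gene is chiefly Gm43738, which overlaps it on the same strand. The values of these 4 genes are therefore uncertain as those of the named gene alone, and the part of the other genes in them was not tested.

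**Figure D2:**
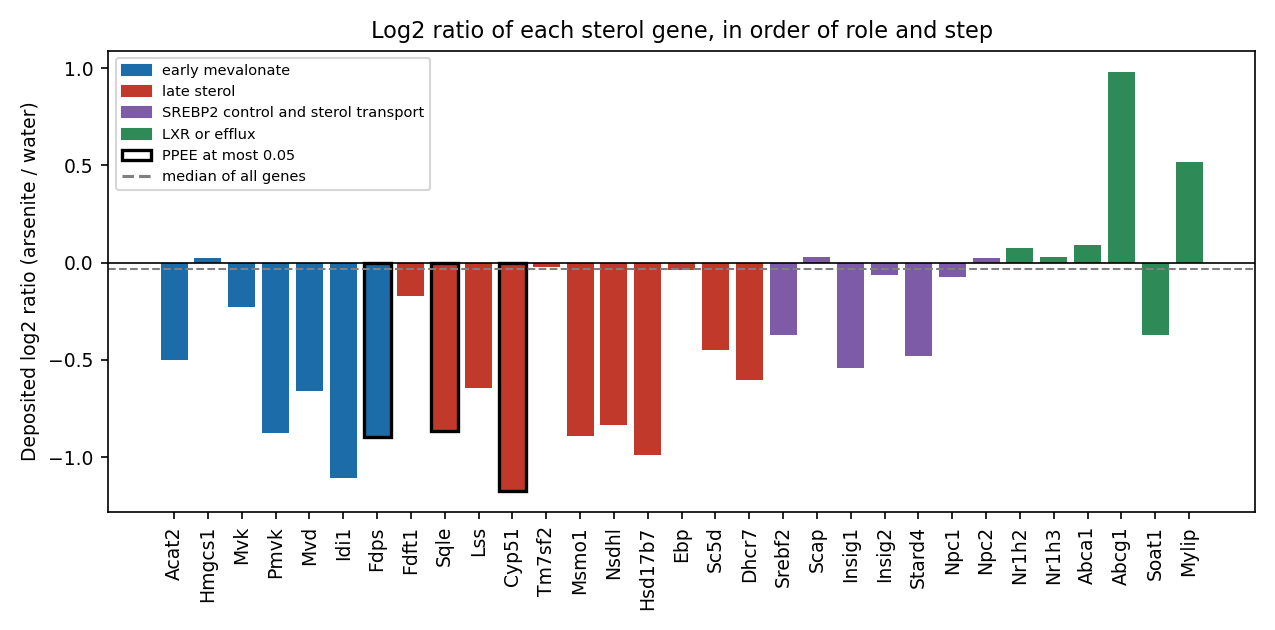
Deposited log2 ratio (arsenite over water) of each sterol gene, ordered by role and step; bars start at 0, black outlines mark a PPEE of at most 0.05, and the dashed line is the median of all 13490 genes (-0.03). Low bars run from Pmvk to Hsd17b7 with gaps at Fdft1 and Tm7sf2, and the LXR or efflux bars lie mostly above 0.

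The late sterol enzymes, from squalene synthase to the last reductase, had a median log2 ratio of -0.64 over 11 genes, and all 11 had a ratio below 0, or 9 of 11 with upper-quartile scaling, scaling to equal sums or the length trend removed, where Ebp and Tm7sf2 turned. Cyp51, lanosterol 14-alpha-demethylase, the cytochrome P450 that begins the trimming of lanosterol, fell from 795 to 353, 2.25-fold lower. This was the lowest ratio of the 31 genes, and the authors' deposited table gave it a PPEE of 5.03e-06, the 16th smallest of all genes. Sqle, squalene epoxidase, which adds the first oxygen, fell from 299 to 164, 1.82-fold lower (PPEE 0.0488, the authors' deposited table). Its PPEE ranked 99th of the 99 called genes, so Sqle lies just inside the bound and Idi1, at 0.0908, is the next member outside it.

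The enzymes that follow Cyp51 in removing the C4 methyl groups were lower by similar amounts without being called. Msmo1, the C4-methylsterol oxidase, had means of 474 and 255. Nsdhl, the C4 decarboxylating dehydrogenase, had 581 and 325, and Hsd17b7, the C3-ketoreductase of the same complex, 405 and 204. These are differences of 1.86-fold, 1.79-fold and 1.99-fold. The authors' deposited table lists PPEE values of 0.179, 0.438 and 0.668 for them, which with that of Idi1 are the 4 smallest among members not called. At a PPEE bound of 0.2, which 1.15% of all genes met, 5 members would be called, Idi1 and Msmo1 joining the 3; at 0.1, met by 0.882%, there would be 4, and at 0.01, met by 0.467%, there would be 2.

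Lss, lanosterol synthase, which closes the rings, had means of 226 and 144, and Dhcr7, the reductase that turns 7-dehydrocholesterol into cholesterol, 141 and 92.8. Sc5d, the C5-desaturase that precedes it, had 2194 and 1605. None was called (PPEE from 0.950 to 0.998, the authors' deposited table). Fdft1, squalene synthase, which commits isoprenoids to sterols, had 638 and 567. Ebp, the sterol isomerase, had 196 and 192, and Tm7sf2, a C14-reductase, 46.4 and 45.7. These last 3 differed by at most 1.12-fold, so the low ratios of the late steps were not shared by all of its enzymes. For Fdft1, 26.5% of the 50-base stretches occur in other genes, chiefly Ctsb, which overlaps it on the opposite strand. For Tm7sf2, which had low means, 9.87% occur in Vps51, which overlaps it on the same strand.

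**Figure D3:**
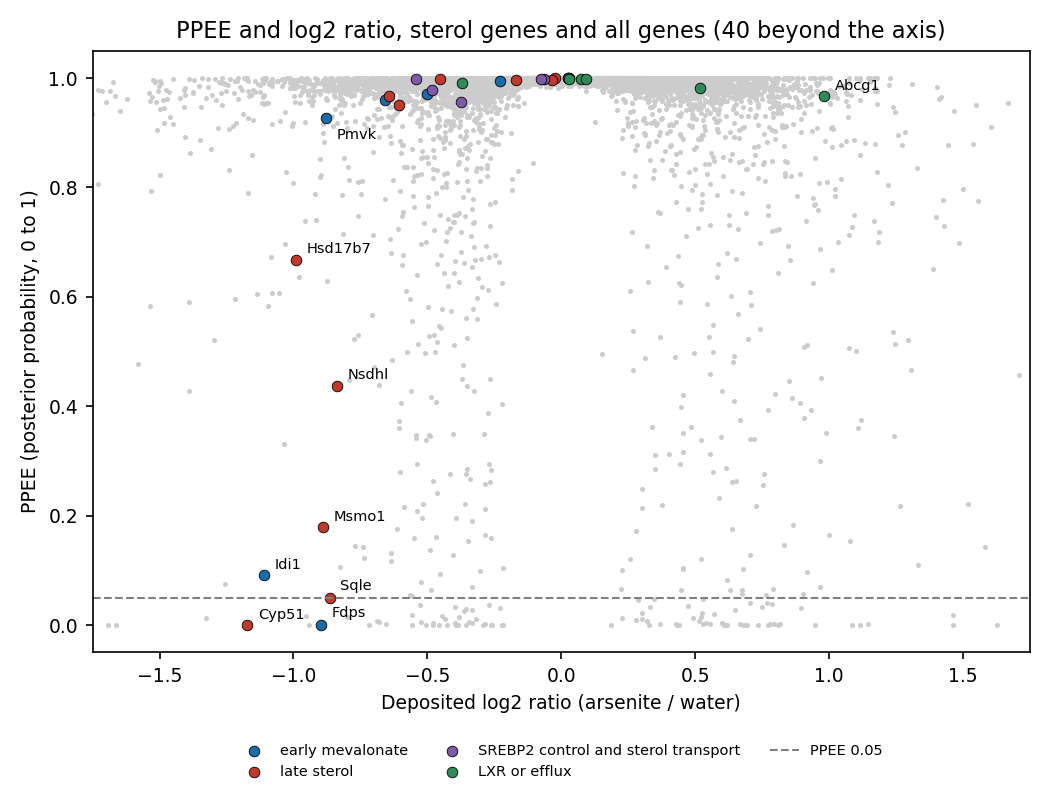
PPEE (0 to 1) against the deposited log2 ratio for the sterol genes (coloured by role) and all other genes (grey); the dashed line is the bound of 0.05, and 40 genes lie beyond the axis. The 7 enzymes Cyp51, Idi1, Hsd17b7, Fdps, Msmo1, Sqle and Nsdhl, with log2 ratios between -1.17 and -0.84, are spread in PPEE from near 0 to 0.668, while Pmvk (0.927) and Abcg1 (0.967) lie high although their ratios are as far from 0.

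A low ratio did not fix the call, among these genes or in the table as a whole. In all, 267 genes had a log2 ratio at or below that of Sqle (-0.86, the authors' deposited table), of which 10 were called (3.75%). Among the members 7 were that low, and 3 of them were called (42.9%). Sqle had the highest ratio of the 3 called members, so this bound takes in all 3 and the shares cannot be compared. PPEE was above 0.9 for 24 of the 31 members and for 95.0% of all genes. The spread between samples that lies behind each PPEE was not analysed here.

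Summed per kilobase of the deposited gene length, the authors' means of the 18 enzymes came to 5743 under water and 4142 under arsenite, a change of -27.9%. Without Hmgcs1 the sums were 4430 and 2805, a change of -36.7%. Hmgcs1 made up 22.9% of the summed enzyme level per kilobase under water and 32.3% under arsenite. Idi1 went from 7.76% to 4.99% of that sum and Cyp51 from 3.18% to 1.96%, while Sc5d, the second most abundant enzyme per kilobase, was at 17.0% and 17.2%. Thus Hmgcs1 took a larger share of the pathway's transcripts under arsenite, and no spread is known against which to set this difference. Over all genes, the same sum per kilobase changed by -13.4%.

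In levels per kilobase, the 31 genes spanned from Soat1 at 12.0 to Insig1 at 1431 under water. Insig1, Hmgcs1 (1313), Npc2 (1108) and Sc5d (976) were the highest under water. Under arsenite the order was Hmgcs1 (1337), Npc2 (1128), Insig1 (982) and Sc5d (714). With no spread per group, neighbours in either order cannot be told to differ.

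**Figure D4:**
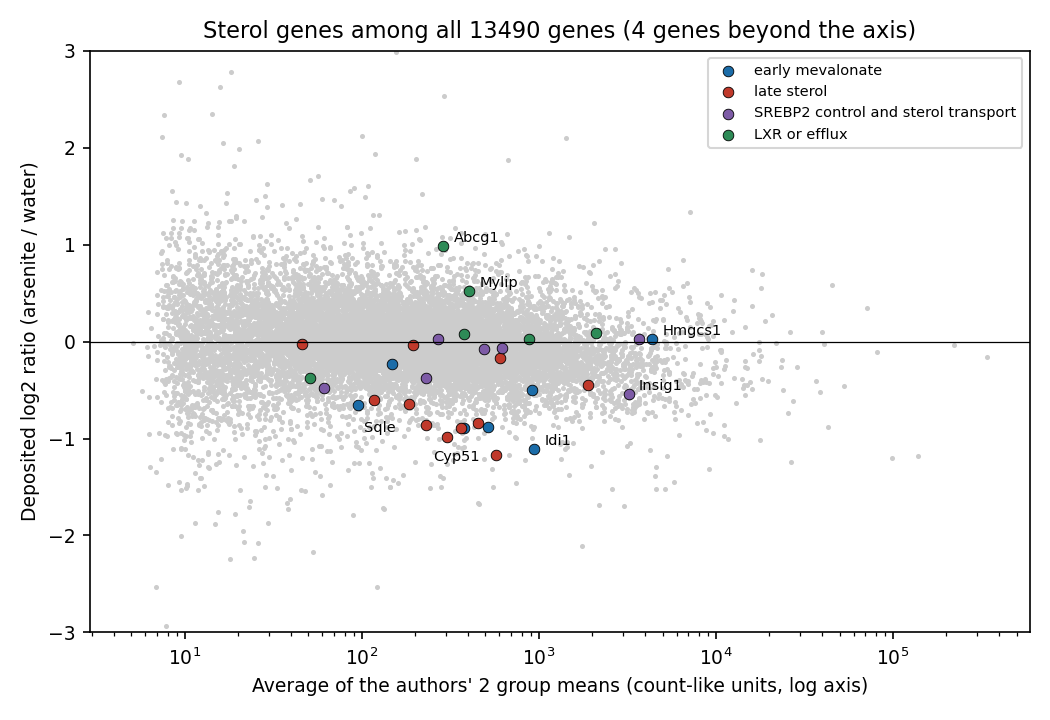
Deposited log2 ratio (arsenite over water) against the average of both authors' means (log axis, count-like units) for all genes (grey) and the sterol genes (coloured by role); 4 genes lie beyond the axis. The enzymes lower by at least 1.5-fold lie in the lower part of the cloud. Their average means run from percentile 33.7 of all genes (Mvd) to percentile 88.5 (Idi1). Hmgcs1, the member farthest to the right, lies near 0.

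None of the 7 genes of SREBP2 control and sterol transport was called, and their median log2 ratio was -0.07, or 0.083 with scaling to equal sums. Srebf2, which encodes SREBP2 itself, had means of 259 under water and 200 under arsenite. Insig1, the sterol-sensitive retention protein and itself an SREBP target, had 3817 and 2619, and its isoform Insig2 had 634 and 607. Insig1 was lower by 1.46-fold and Insig2 by 1.04-fold. Scap, the escort, had 266 and 272. The 4 genes had PPEE values from 0.957 for Srebf2 to 1 for Scap according to the authors' deposited table. Of the 50-base stretches of Scap, 9.96% occur in another gene, which overlaps it on the opposite strand.

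Among the transport genes, Stard4, a soluble sterol carrier and SREBP2 target, had the low means of 71.8 and 51.2. The lysosomal exit proteins Npc1 and Npc2, which pass cholesterol from endocytosed lipoproteins to the cytosol, had 502 and 477 and 3633 and 3698. Npc1 and Npc2 thus differed by at most 1.05-fold between the groups. The authors' deposited table lists a PPEE of 0.979 for Stard4 and 0.998 or above for the pair.

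The LXR or efflux genes had a median log2 ratio of 0.08, with 5 of 6 above 0 and none called. Abcg1, which exports cholesterol to HDL particles and is a classical LXR target, had means of 193 under water and 383 under arsenite. The authors' deposited table lists a log2 ratio of 0.98 for Abcg1, the highest of the 31, and a PPEE of 0.967. It was the only member higher by at least 1.5-fold, a size that 4.92% of all genes reached. Mylip, the LXR-induced ubiquitin ligase that degrades lipoprotein receptors, had 332 and 475 (log2 ratio 0.52 and PPEE 0.983, the authors' deposited table). Abca1, the transporter that loads lipid-poor apolipoprotein A-I and also an LXR target, had 2030 and 2162. So Abcg1 and Abca1, both efflux transporters, differed in ratio, but neither difference was called and the contrast between them was not tested.

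The receptors themselves had nearly equal means in both groups. Nr1h3, encoding LXR alpha, had 866 under water and 885 under arsenite, and Nr1h2, encoding LXR beta, 369 and 389. Soat1, the acyltransferase that esterifies cholesterol for storage, had 57.3 and 44.2 and was the one gene of this group with a lower mean. The authors' deposited table lists a PPEE of 0.991 or above for these 3 and for Abca1.

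Wider lists of the pathway, which hold none of the 31 genes, had between 0 and 1 called gene each. Over all genes tested, 0.734% were called in either direction, 0.348% were called lower, 54.5% had a ratio below 0 and the median log2 ratio was -0.03. Of 21 measured genes of the isoprenoid branches, 1 (4.76%) was called lower and 15 (71.4%) had a ratio below 0 (median -0.17). This was Zmpste24, the protease that processes prenylated prelamin A, which fell from 446 to 357 (PPEE 0.0119 in the authors' deposited table). Of 20 genes of SREBP processing and reductase degradation, 1 (5.00%) was called higher, against 0.385% of all genes, and 13 (65.0%) lay below 0 (median -0.09). It was Sec24b, a COPII coat subunit, which rose from 339 to 458 (PPEE 0.000711 in the authors' deposited table). Of 19 genes of lipoprotein uptake and lysosomal sterol handling none was called, and 15 (78.9%) lay below 0 (median -0.16). Lamp2, a lysosomal membrane protein, and Stard5, a sterol-binding protein, had the smallest PPEE of these, with means of 3458 and 2687 and of 370 and 243.

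Of 21 LXR targets, cofactors and oxysterol enzymes, 1 (4.76%) was called lower, against 0.348% of all genes, and 12 (57.1%) lay below 0, close to the 54.5% of all genes (median -0.05). This was Lpcat3, an LXR-induced phospholipid acyltransferase, which fell from 856 to 703 (PPEE 0.00126 in the authors' deposited table). In all, 3 of these 81 genes (3.70%) were called, 2 lower and 1 higher, against 0.734% of all genes. Lower by at least 1.5-fold were 3 (3.70%), against 5.79% of all genes. The lists were chosen with earlier results of these data known, so the called share cannot be read as a result about them. Of the 18 synthesis enzymes, 3 were called and 11 were lower by that size. The difference between the lists was not tested.

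Summed levels of most cell type markers were unequal between the groups beside these values, those of general adipocyte markers least. None of these markers was called. The 8 general adipocyte markers, the label's tissue, were abundant in both groups, with summed means of 320987 and 326821, 3 of 8 lower. Fabp4, with 223241 and 218556, made up most of these sums. By median log2 ratio, macrophage markers lay nearest to 0 (-0.05), and general adipocyte markers were at 0.15. All 5 beige or brown adipocyte markers were lower under arsenite, with summed means of 53493 and 21339 and a median log2 ratio of -1.52. Of these, 4 of 5 (Ucp1, Cidea, Dio2 and Elovl3, but not Cox8b) had ratios below that of Cyp51, the lowest sterol gene. Endothelial markers were higher in 7 of 8, with sums of 2795 and 4720, and fibroblast markers in 5 of 6, with 16103 and 18492. Skeletal muscle markers were lower in 5 of 6, with sums of 173955 and 129751, and macrophage markers in 4 of 7, with 3967 and 3467. The 3 B and T cell markers measured, of 7 listed, were low in both groups, with sums of 60.7 and 25.6. No measured marker was listed at 0. The part of these differences in cell types in the sterol gene values was not tested.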

How the data were processed

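Each of the 6 samples was assigned to water or arsenite by its labelled treatment. Alignment was to GRCm38, per the labels' protocols; Bowtie2, HISAT and RSEM are named, without roles, in the submitters' processing notes. For every gene the authors deposited a mean signal of each group, on a count-like scale; how libraries were scaled and genes filtered is not given in the sources used here. The log2 ratio that the authors deposited equals log2 of arsenite over water after 0.574 is added to both means. PPEE is the EBSeq method's posterior probability of equal expression and no p-value. The control column was taken as water and the treatment column as arsenite.

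Values per sample were not analysed here, so the planned models on such values were not fitted, and genes were called at a PPEE of at most 0.05 across the whole table. All 31 members are named, and of the wider lists the called genes or else the 2 of smallest PPEE. Members, lists and the bound were chosen with earlier results of these data known, and the 1.5-fold size and the 4 promoters shown after the values were seen. Shared sequence is the share of 50-base stretches of GENCODE M21 transcripts found in other genes on either strand. Coordinates and promoters come from RefSeq's annotation of GRCm38.p6. Alternatives were added constants of 0.1 and 5, scaling to equal sums or upper quartiles, quantile normalization, a minimum mean of 50, other PPEE bounds, leaving out genes with at least 10% shared sequence, and removing a lowess trend (span 0.3) on gene length, a step tested on simulated data. Software was matplotlib 3.10.9, statsmodels 0.14.6, scipy 1.17.1, numpy 2.4.6 and pandas 2.3.3 under Python 3.11.15.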

Additional observations from a re-analysis of the deposited data

How the results depend on the processing

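Of 46 recomputed summary values, 39 stayed within 1.5 times a count or within 0.1 of a median log2 ratio. The count of 3 called members became 5 at a PPEE bound of 0.2, which 1.15% of all genes met. It became 1, Cyp51, when an absolute log2 ratio of at least 1 was also asked. The share of all genes that met this last rule was not computed. Scaling to equal sums moved the median of all genes by 0.16; with it the median log2 ratio was -0.50 for the early mevalonate enzymes, -0.49 for the late sterol enzymes, 0.083 for SREBP2 control and sterol transport and 0.24 for the LXR or efflux genes, where quantile normalization gave 0.19. This scaling shifts all ratios by nearly the same amount, so it could not reorder the 4 medians. With the length trend removed, the early and late medians were -0.60 and -0.64. Without genes of shared sequence they were -0.66 and -0.74. In both settings the late median was the lower, whereas as deposited the early median was (-0.66 against -0.64). The number of members lower by at least 1.5-fold, an alternative added after seeing the data, ran from 8 to 11 over the settings run. It was 8 with scaling to equal sums, where 3.08% of all genes were that low against 5.79% as deposited. Without genes of shared sequence it was 9. Fdps, Sqle and Cyp51 were lower under each of the 6 scalings, added constants and length adjustment, with log2 ratios from -1.19 to -0.71. An added constant cannot turn a sign. Scaling to equal sums or upper quartiles moved the median of all genes by only 0.16 and 0.06. Signs of Tm7sf2, Ebp, Insig2 and Npc1, all near 0, turned under 1 or more of the 6 alternatives. Leaving out a replicate was not run, since values per sample were not analysed here. No paired analysis was possible because the groups share no replicate number and the table holds group means. Depth is known only as about 20 M mapped reads for each sample. This and the missing spread limit every value, and low genes such as Tm7sf2, Soat1 and Stard4 most.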
